A study of Mus musculus with 13 samples.

Results

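The 49 genes described here encode the proteins that mark, load, unwind and copy DNA replication origins and that reassemble chromatin behind the fork. They were listed by gene symbol for their known roles, with earlier results of these data known, and each of the 49 matched 1 row of a table of 53465 mouse genes. By role, 9 act in origin licensing, 14 form or activate the helicase, 20 are polymerase, clamp or strand-processing genes, 3 protect the fork and 3 assemble chromatin. Bulk RNA was sequenced from 10 MYC;Trp53 (MP) ovarian tumors and from 3 wild-type (WT) ovaries. MP tumors were made by EPO-GEMM, in which the ovary of a C57BL/6 female of 8 to 12 wk was electroporated in vivo. The plasmids were a transposon vector carrying MYC, the Sleeping Beauty transposase that inserts it, and a vector with Cas9 and a guide RNA against Trp53. Both groups were untreated WT C57BL/6 tissue apart from these plasmids, and each tumor was taken whole at end point, so that host cells were sequenced along with tumor cells. Electroporation reaches every cell type of the tissue near the electrodes, so the labels do not fix which cell a tumor arose from. In separate mice the paper let only epithelial cells expressing cytokeratin-8 be edited. Those mice formed similar tumors, from which the paper concluded that EPO-GEMM tumors are of epithelial origin.

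Replication starts in 2 separate steps. In G1 the origin recognition complex (ORC), with CDC6 and CDT1, loads the ring-shaped MCM helicase onto DNA in an inactive form, and geminin later blocks CDT1 so that an origin cannot be loaded again. In S phase the kinase pair CDC7 and DBF4 lets CDC45 and the GINS complex join the ring, and MCM10 helps to switch the helicase on. Polymerase alpha-primase then lays the primers, the RFC clamp loader places the PCNA ring, and polymerases delta and epsilon copy the strands. Many of these genes are transcribed in late G1 under E2F factors, and their RNA is abundant in cycling cells and scarce in resting ones. A normal ovary also holds cycling cells, in particular the granulosa cells of growing follicles.

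The windows around the transcription start of 6 of these genes are printed here because the results below turn on them: the origin genes Orc1 and Cdt1, the primase gene Prim1 and the clamp loader gene Rfc4 were called higher in the tumors in TPM, while Orc2 and Rfc1, which work in the same complexes as Orc1 and Rfc4, were not. Each runs 5′ to 3′ along the gene, from 250 bases before to 50 bases after the start in RefSeq (build GRCm38.p6). Capitals mark an E2F-type motif (TTCCCGC or TTGGCGC or TTCGCGC or TTGCCGC, either strand) or a CCAAT box (either strand), and adjoining matches run together.
Orc1, chr4:108579204-108579503, plus strand: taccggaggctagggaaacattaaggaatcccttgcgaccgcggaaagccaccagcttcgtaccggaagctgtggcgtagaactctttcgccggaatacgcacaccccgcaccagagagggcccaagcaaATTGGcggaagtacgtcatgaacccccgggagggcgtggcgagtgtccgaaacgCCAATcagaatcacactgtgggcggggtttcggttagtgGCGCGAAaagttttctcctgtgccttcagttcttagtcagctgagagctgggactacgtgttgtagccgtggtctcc
Cdt1, chr8:122567765-122568064, plus strand: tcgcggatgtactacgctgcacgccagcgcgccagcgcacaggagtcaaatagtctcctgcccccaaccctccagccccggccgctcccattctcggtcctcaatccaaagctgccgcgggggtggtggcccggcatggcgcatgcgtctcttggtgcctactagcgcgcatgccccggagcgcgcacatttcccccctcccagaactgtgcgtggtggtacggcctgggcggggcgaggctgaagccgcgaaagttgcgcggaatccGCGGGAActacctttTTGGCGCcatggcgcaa
Prim1, chr10:128014965-128015264, plus strand: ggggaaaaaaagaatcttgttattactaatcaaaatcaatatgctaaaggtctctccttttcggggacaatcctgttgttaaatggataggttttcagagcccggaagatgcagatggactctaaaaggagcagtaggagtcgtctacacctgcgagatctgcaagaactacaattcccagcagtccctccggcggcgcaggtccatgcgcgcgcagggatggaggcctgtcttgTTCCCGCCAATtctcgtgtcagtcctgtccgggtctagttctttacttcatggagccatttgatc
Rfc4, chr16:23127681-23127980, minus strand: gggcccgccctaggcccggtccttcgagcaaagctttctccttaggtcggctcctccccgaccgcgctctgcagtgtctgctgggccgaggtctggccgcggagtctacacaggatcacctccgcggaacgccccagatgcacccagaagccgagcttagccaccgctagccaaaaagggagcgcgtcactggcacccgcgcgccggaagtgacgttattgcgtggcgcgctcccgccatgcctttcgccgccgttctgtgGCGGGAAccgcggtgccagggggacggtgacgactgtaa
Orc2, chr1:58505060-58505359, minus strand: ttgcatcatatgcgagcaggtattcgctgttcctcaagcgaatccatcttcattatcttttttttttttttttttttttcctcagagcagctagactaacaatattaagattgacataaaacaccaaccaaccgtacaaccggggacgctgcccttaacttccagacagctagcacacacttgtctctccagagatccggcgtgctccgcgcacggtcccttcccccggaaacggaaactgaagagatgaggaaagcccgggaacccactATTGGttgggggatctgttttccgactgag
Rfc1, chr5:65335590-65335889, minus strand: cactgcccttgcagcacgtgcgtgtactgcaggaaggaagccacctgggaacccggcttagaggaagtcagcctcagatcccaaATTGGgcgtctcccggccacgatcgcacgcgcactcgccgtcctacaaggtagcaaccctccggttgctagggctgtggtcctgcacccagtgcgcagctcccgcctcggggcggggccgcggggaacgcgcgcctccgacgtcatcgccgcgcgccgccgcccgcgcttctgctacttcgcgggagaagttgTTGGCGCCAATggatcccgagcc
Orc2 has another start window in the same reference, which is not shown. Of the 49 members, 40 had at least 1 window, and 26 of the 40 (65.0%) held an E2F-type motif, against 10.9% of the 27025 gene symbols with a window. The motif stood in 7 of the 9 called members with a window and in 19 of the 31 others, so it was common on both sides of the call. It was in the windows of Orc1, Cdt1, Prim1 and Rfc4 and also in that of Rfc1. A CCAAT box was found in 23 of the 40 (57.5%) against 41.1% of all symbols, and CACGTG, the core E-box that MYC and other factors read, in 7 of the 40 (17.5%) against 8.1%. The letters CACGTG were in 0 of the 9 called members with a window and in 7 of the 31 others. These are matches of letters in a window of 300 bases, not measured binding.

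Values were deposited as TPM, in which reads are divided by gene length and each library is then scaled to the same total. Depth, computed from the smallest TPM step in each library, was 31445004 to 64013840 reads in WT ovaries and 3892690 to 19906507 in MP tumors. Only Fen1 had fewer than 10 reads in any library. Library names carry 1 of 3 numbers, called sets A, B and C here: the 3 WT ovaries and MP1 to MP3 share the number of set A, MP4 to MP6 that of set B, and MP7 to MP10 that of set C. Only set A holds both groups, so results are given over all tumors and within that set. What the number stands for is not given in the labels. In MP2 the 10 most abundant genes took 55.1% of all TPM, against at most 20.6% in any other library. Trp53, the edited gene, was at 80.7, 85.0 and 85.4 TPM in the WT ovaries and at 4.30 to 26.0 TPM in 9 tumors, but at 187 TPM in the library labelled MP10. Its log2 fold change was -2.23 (adjusted P = 0.058). An indel need not lower an mRNA, so this level checks the label only in part.

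Levels of cell type markers differed between the groups, where 14.3% of all genes were called lower in tumors. Of 8 granulosa markers 7 were lower in tumors, with a summed level of 3654 to 6691 TPM in WT ovaries and 20.3 to 2188 TPM in tumors. Of 7 tested theca and luteal markers 6 were lower (27183 to 32318 against 12.6 to 825 TPM), as were all 8 oocyte markers (295 to 433 against 1.4 to 32.1 TPM), and the oocyte gene Figla was at 0 in all 10 tumors. Fibroblast markers were lower in 3 of 7, endothelial in 3 of 6 and immune in 2 of 7 tested. Of 7 tested epithelial markers, 4 were lower and 0 higher. Their sum ran from 5.7 to 1152 TPM in tumors against 240 to 270 TPM in WT ovaries, and Epcam was below every WT ovary in 10 of 10 tumors. By protein staining the paper reports cytokeratin-7 in all tumors it analyzed, which need not be the tumors sequenced here. The part of the shifts in marker RNA in the results below was not tested. In bulk tissue fewer cells of a type and less RNA per cell cannot be told apart.

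The 49 members together made up 1388 to 1911 TPM in WT ovaries and 1846 to 6462 TPM (median 4496) in tumors, with MP4 lowest and the library labelled MP10 highest, and MP4 lay below WT2. The median member lay at percentile 57.8 to 62.7 of tested genes in WT ovaries and at percentile 72.6 to 89.3 in tumors, without overlap. Each of the 49 had a higher median percentile in tumors.

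Gene by gene, 11 of the 49 were called higher and 0 lower (limma, adjusted P under 0.05 over 17277 genes), against 2.51% of all tested genes higher and 14.3% lower. At an unadjusted P under 0.05, 28 members were higher and 0 lower. The share of all genes at that threshold was not computed, so this count has no background. The fold change was above 0 in 47 members, against 30.1% of all genes, and the median log2 fold change of TPM + 1 was 1.19 for members and -0.58 for all genes. For 12 members every tumor lay above every WT ovary, which held for 3.02% of all genes; 8 of the 12 were among those called. The number called leaned on single libraries, falling to 6 without WT1 and 2 without WT3 (0.781% and 0.544% of all genes higher). It climbed to 25 without MP2 and 18 without MP4 (3.68% and 2.73% of all genes). It was 13 without the library labelled MP10 (2.71% of all genes).

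TPM is a share of a fixed total, so a few genes that take more of it lower the TPM of the rest. Median-of-ratios scaling, which aligns the bulk of genes, raised the median of all genes by 0.56 to -0.02, and 38 of 49 members were then called higher and 0 lower, against 7.47% of all genes higher and 10.9% lower. By role these were 4 of 9 licensing, 12 of 14 helicase, 17 of 20 polymerase, clamp and strand-processing, 3 of 3 fork and 2 of 3 chromatin assembly genes, so the counts per role given further on, which are in TPM, depend on the scaling. Higher calls made up 15.0% of all calls in TPM and 40.6% after that scaling. The members' median stood 1.77 above that of all genes in TPM and 1.93 above it after rescaling. Such scaling divides all genes of a library by 1 factor, so apart from the added 1 TPM this distance could hardly change. It was 2.10 with voom and 1.26 over all genes without the filter on low values.

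**Figure D1:**
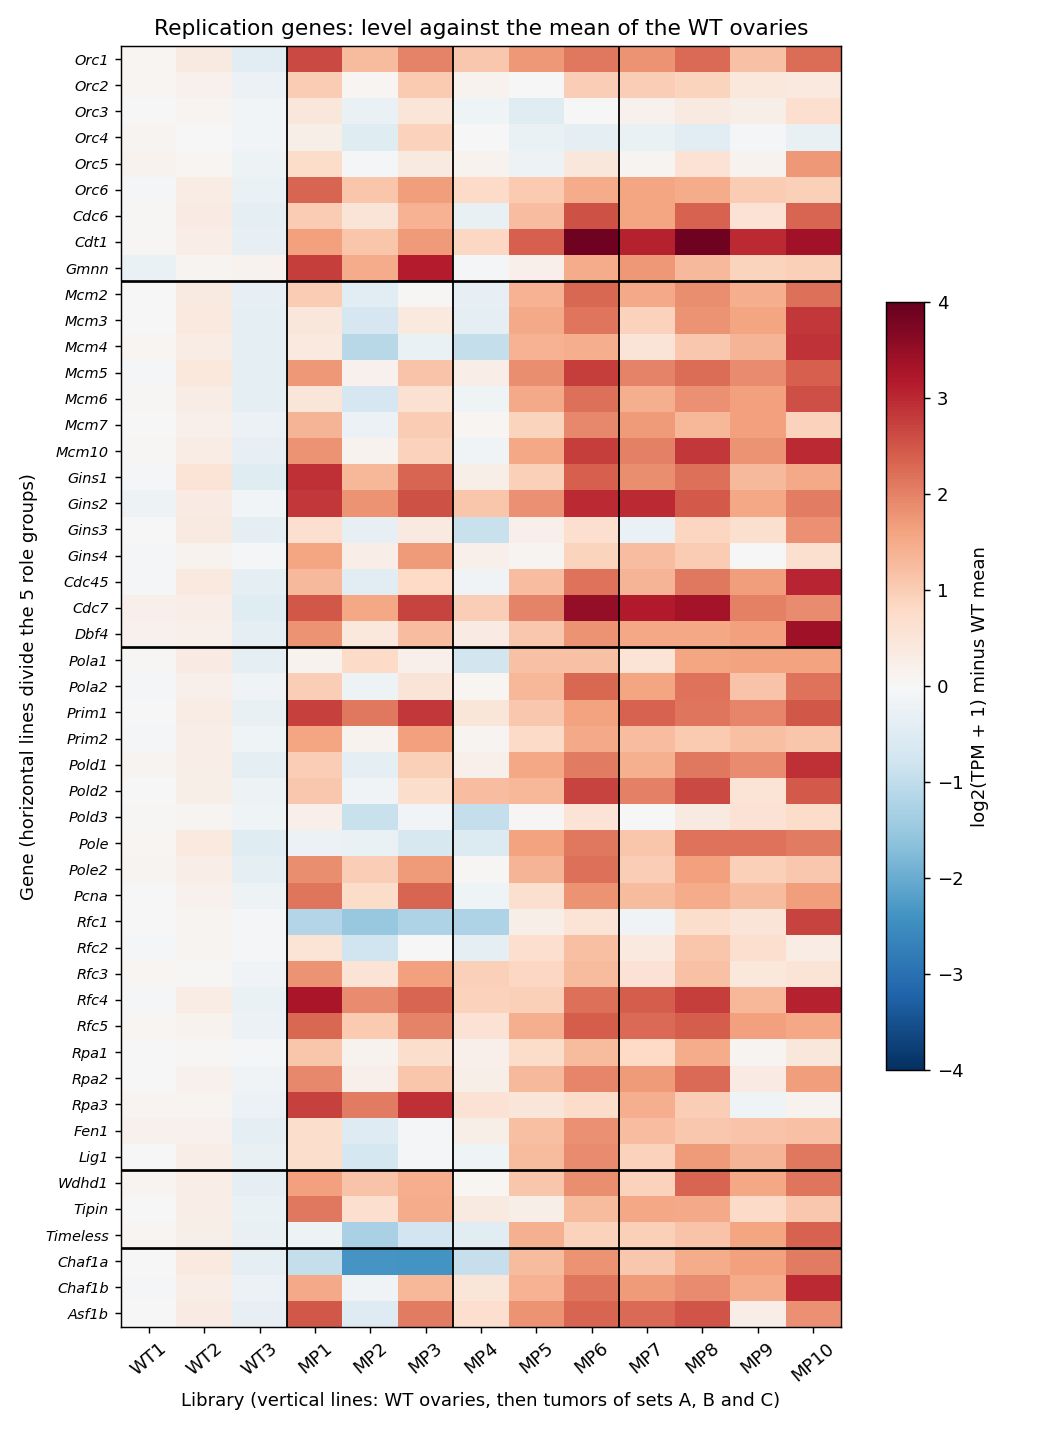
Level of each of the 49 replication genes (rows, by role group) in each library (columns), as log2(TPM + 1) minus the mean of the 3 WT ovaries, red higher and blue lower. Most tumor cells are red, MP2 and MP4 are the palest tumors with 19 and 20 of the 49 lowest values, and Chaf1a and Rfc1 are blue in MP1 to MP4. Levels are in TPM and were not rescaled for the composition of each library.

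In origin licensing 3 of 9 genes were called higher, Orc1, Orc6 and Cdt1, and 0 lower, with a median log2 fold change of 1.32. Orc1 (chr4:108579423-108614833, plus strand, mm10), the ORC subunit whose protein comes and goes with the cell cycle, was at 3.60, 4.65 and 2.24 TPM in WT ovaries and at 8.23, 15.3 and 26.1 TPM (lowest, median, highest) in tumors. All 10 tumors lay above all 3 WT ovaries, and the log2 fold change was 1.83 ± 0.41 (SE, n = 10 and 3, limma adjusted P = 0.0071). Orc6 (chr8:85299632-85308278, plus strand), the smallest ORC subunit, was at 42.6, 54.6 and 36.1 TPM in WT ovaries and at 75.2, 109 and 222 TPM in tumors, again without overlap (1.34 ± 0.33, adjusted P = 0.013).

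Cdt1 (chr8:122568015-122573554, plus strand), the factor that brings the MCM ring to the origin, had the largest fold change of the 49 over all tumors in TPM. It was at 19.9, 23.2 and 14.9 TPM in WT ovaries and at 34.8, 131 and 295 TPM in tumors, without overlap (2.48 ± 0.61, adjusted P = 0.013). With voom Cdc7 had a larger one (2.95 against 2.92), and within set A Cdt1 was at 1.49 (adjusted P = 0.0049), not the largest there. Orc1 lost its call without WT3 (adjusted P = 0.067), and Orc6 (0.070 and 0.090) and Cdt1 (0.058 and 0.080) lost theirs without WT1 or WT3. Geminin (Gmnn), the inhibitor of CDT1, was at 39.6, 52.0 and 53.1 TPM in WT ovaries and at 45, 127 and 432 TPM in tumors, with 9 of 10 tumors above every WT ovary (1.39 ± 0.56, adjusted P = 0.0996). None of the other ORC subunits passed the test in TPM, and Orc2 did with voom (1.02, adjusted P = 0.025). Orc2 was at 41.3, 43.9 and 33.3 TPM in WT ovaries and at 39.4, 63.4 and 82.7 TPM in tumors (0.60 ± 0.33, adjusted P = 0.21), and Orc3, Orc4 and Orc5 had log2 fold changes of 0.15, -0.11 and 0.40. Cdc6, the ATPase that works with ORC, had 1.32 ± 0.55 (adjusted P = 0.11). It was called with median-of-ratios scaling, with the length trend removed and with voom (adjusted P = 0.020, 0.013 and 0.0095). Gmnn was called with voom (1.91, adjusted P = 0.028) but not in the other 2 settings (0.090 and 0.064).

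In the helicase group 4 of 14 genes were called higher, Cdc7, Gins2, Gins1 and Mcm5, and 0 lower. Gins2 (chr8:120578633-120589304, minus strand), a GINS subunit, was at 7.46, 11.4 and 8.06 TPM in WT ovaries and at 20.3, 45.9 and 77.6 TPM in tumors, without overlap (2.21 ± 0.42, adjusted P = 0.0023). Cdc7 (chr5:106964322-106984432, plus strand), the kinase that phosphorylates the MCM ring, was at 9.64, 10.1 and 5.65 TPM in WT ovaries and at 17.3, 43.6 and 104 TPM in tumors, without overlap (2.36 ± 0.50, adjusted P = 0.0048). Gins2 and Cdc7 were the members called in each of the 13 fits that left out 1 library. Gins1 (chr2:150905400-150931280, plus strand) was at 17, 25.8 and 12.1 TPM in WT ovaries and at 20.8, 59.2 and 140 TPM in tumors, where MP4 alone fell within the WT range (1.70 ± 0.49, adjusted P = 0.027). Its call was lost without any 1 of the WT ovaries (adjusted P = 0.054 to 0.157).

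The 6 genes of the MCM ring had fold changes from 0.67 to 1.65 over all tumors, and in TPM Mcm5 alone was called. With median-of-ratios scaling all 6 were called higher (median 1.79, adjusted P = 0.00091 to 0.0496), as they were with the length trend removed, and 5 of 6 were with voom. In these settings 7.47%, 11.5% and 10.9% of all genes were higher and 10.9%, 9.19% and 23.4% lower. Within set A 0 of the 6 were called in TPM, with a median of 0.18 and Mcm4 at -0.33, where the median of all genes was -1.19 and 6.44% of all genes were higher and 57.3% lower. There too all 6 were called higher with median-of-ratios scaling (median 1.76, adjusted P = 0.00033 to 0.0038) and with the length trend removed, against 2 of 6 with voom. Of all genes within set A, 26.6%, 32.3% and 14.3% were then higher and 32.2%, 23.9% and 47.9% lower. Mcm5 (chr8:75109569-75128439, plus strand) was at 45.6, 63.3 and 36.5 TPM in WT ovaries and at 53.3, 177 and 325 TPM in tumors, with MP2 and MP4 inside the WT range (1.65 ± 0.50, adjusted P = 0.035). Its call was the least stable of those above, since it was lost without any 1 WT ovary (adjusted P = 0.079 to 0.168) and without MP1, MP7 or MP8 (0.051 to 0.055). Mcm2 was at 32.6, 42.2 and 25.9 TPM in WT ovaries and at 23.6, 89.7 and 167 TPM in tumors (1.10 ± 0.57, adjusted P = 0.19). Dbf4, which activates CDC7, was at 10.9, 11.3 and 7.16 TPM in WT ovaries and at 12.3, 30.1 and 111 TPM in tumors. All 10 tumors were above all WT ovaries for Dbf4, yet its adjusted P was 0.063 (1.48 ± 0.52). Mcm10 and Cdc45, which act with GINS to start the helicase, had fold changes of 1.66 and 1.31 (adjusted P = 0.079 and 0.14), and Gins3 and Gins4 had 0.37 and 0.76 (0.60 and 0.17). Cdc7, Dbf4, Mcm10 and Cdc45 were all called higher with median-of-ratios scaling, with the length trend removed and with voom. Their largest adjusted P was 0.0061, 0.011 and 0.012 in these settings. Gins4 was called only with voom (1.19, adjusted P = 0.039) and Gins3 in none of them.

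Of the 20 polymerase, clamp and strand-processing genes 3 were called higher, the small primase subunit Prim1 and the clamp loader genes Rfc4 and Rfc5, and 0 lower. Prim1 (chr10:128015168-128030037, plus strand), which makes the RNA primer, was at 13.2, 16.7 and 10.7 TPM in WT ovaries and at 19, 61.2 and 100.4 TPM in tumors (1.98 ± 0.46, adjusted P = 0.0083). Rfc4 (chr16:23113943-23127737, minus strand) was at 38.2, 49.8 and 33.4 TPM in WT ovaries and at 76.9, 197 and 391 TPM in tumors (2.12 ± 0.48, adjusted P = 0.0073). Rfc5 (chr5:117378103-117389047, minus strand) was at 17.6, 18.5 and 14.1 TPM in WT ovaries and at 25.5, 61.6 and 94.4 TPM in tumors (1.77 ± 0.41, adjusted P = 0.0079). In none of these 3 genes did the groups overlap, and all 3 lost their call without WT3 (adjusted P = 0.054 to 0.062).

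The sliding clamp gene Pcna was the most abundant member in WT ovaries, at 117, 129 and 99.3 TPM, and was at 101, 297 and 576 TPM in tumors (1.31 ± 0.44, adjusted P = 0.051). It has the processed copies Pcna-ps1 and Pcna-ps2, which can share reads with it. Among the polymerase catalytic subunits, Pola1, Pold1 and Pole had fold changes of 0.80, 1.37 and 0.96 (adjusted P = 0.26, 0.099 and 0.34), and the accessory subunit Pole2 had 1.28 (0.051). The RPA genes, whose products coat single-stranded DNA, had 0.71 to 1.27, and for Rpa1 and Rpa2 all 10 tumors lay above all WT ovaries although neither passed the test (adjusted P = 0.15 and 0.068). Fen1 was listed at only 0.466 to 1.12 TPM in WT ovaries and 0.297 to 5.57 TPM in tumors, and it overlaps Tmem258 and Gm10143, so its level is uncertain. In all, 24 of the 49 members overlap another annotated gene, Rfc4, Rfc5, Orc1, Orc6, Cdt1, Gins2 and Wdhd1 among them.

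At the fork, Wdhd1 (chr14:47240944-47276857, minus strand), which ties polymerase alpha to the helicase, was called higher. It was at 8.37, 9.38 and 5.70 TPM in WT ovaries and at 8.11, 23.5 and 42.4 TPM in tumors, with only MP4 inside the WT range (1.42 ± 0.45, adjusted P = 0.040), and the call was lost without any 1 of the WT ovaries or of MP1, MP3, MP6 and MP8 (0.055 to 0.188). Tipin was at 67.3, 82.4 and 56.5 TPM in WT ovaries and at 79.5, 154 and 298 TPM in tumors (1.10 ± 0.38, adjusted P = 0.057). Its partner Timeless, with which it holds the fork together, had 0.57 ± 0.66 (adjusted P = 0.55).

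None of the 3 chromatin assembly genes passed the test in TPM, while 2 of 3, Asf1b and Chaf1b, were called higher with median-of-ratios scaling (2.25 and 2.13, adjusted P = 0.018 and 0.0017), with the length trend removed (2.24 and 2.34, 0.012 and 0.0015) and with voom (2.06 and 1.93, 0.016 and 0.0030). Asf1b, a histone chaperone of cycling cells, was at 16.1, 21 and 12.8 TPM in WT ovaries and at 11.2, 66.1 and 98.2 TPM in tumors (1.57 ± 0.60, adjusted P = 0.082). Chaf1b, a subunit of the chromatin assembly factor CAF-1, was at 9.51, 12.1 and 8.28 TPM in WT ovaries and at 8.74, 29.6 and 85.6 TPM in tumors (1.48 ± 0.52, adjusted P = 0.062). Its partner Chaf1a, named here after its values were seen, split the tumors: it was at 20.4, 26.9 and 15.4 TPM in WT ovaries, at 3.10 to 10.4 TPM in MP1 to MP4, and at 44.2 to 89.8 TPM in MP5 to MP10. No tumor lay within the WT range, and the fold change over all tumors was 0.28 ± 0.93 (adjusted P = 0.85).

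Within library set A, where MP1 to MP3 and the 3 WT ovaries share a number, 19 members were called higher and 2 lower, against 6.44% of all genes higher and 57.3% lower. The comparison shares its WT ovaries with the one over all tumors. MP1 to MP3 are also among the 10 tumors, so both sides share libraries. Mcm5, called over all tumors, was not called here (1.02, adjusted P = 0.091). The largest fold changes here were Rpa3 (2.57, adjusted P = 0.00051), Prim1 (2.56, adjusted P = 0.00040), Rfc4 (2.5, adjusted P = 0.0015), Gmnn (2.47, adjusted P = 0.0028) and Gins2 (2.38, adjusted P = 0.00081). The 2 lower members were Rfc1, the large clamp loader subunit (-1.31, adjusted P = 0.0043), and Chaf1a (-1.89, adjusted P = 0.0071), against a median of -1.19 for all genes. After median-of-ratios scaling, which raised that median by 1.09, 46 members were higher and 0 lower, against 26.6% of all genes higher and 32.2% lower. Rfc1 then turned to 0.27 and Chaf1a was at -0.45 (adjusted P = 0.28 and 0.32). With voom on the reads both were called lower (-0.69 and -1.45, adjusted P = 0.025 and 0.027), and with the length trend removed Rfc1 was called higher (0.58, adjusted P = 0.029), so its direction here depends on the processing. Higher calls were 10.1% of all calls in TPM and 45.2% after rescaling. Without MP2, 33 members were higher and 2 lower, against 12.6% of all genes higher and 56.5% lower.

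**Figure D2:**
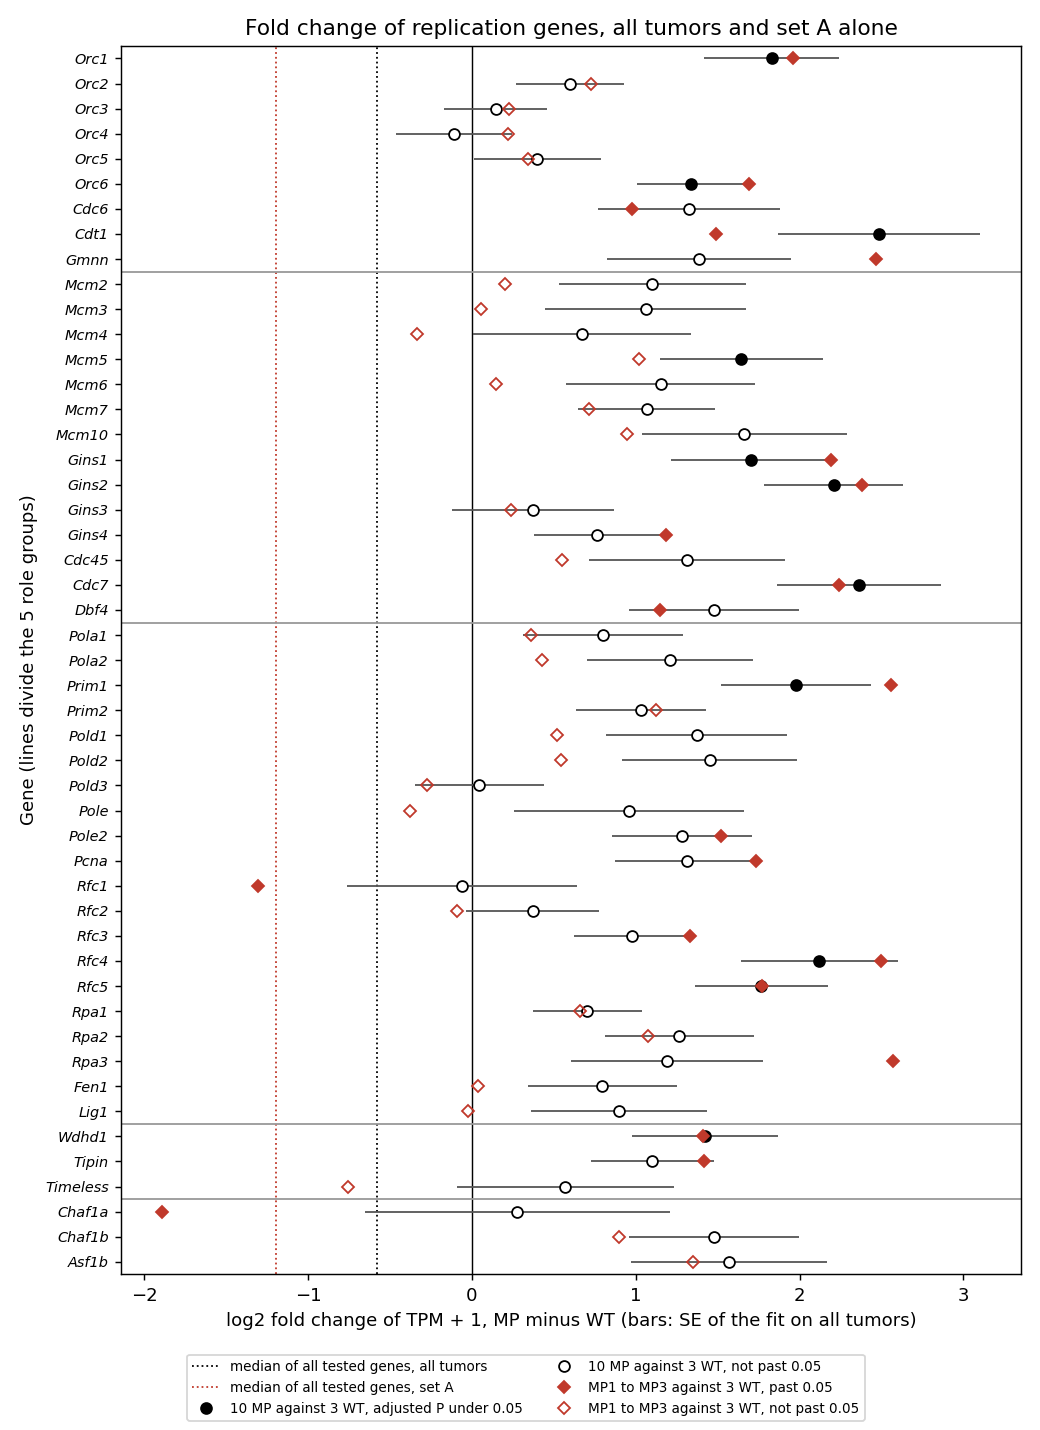
Log2 fold change of TPM + 1 for each replication gene, MP minus WT, over all 10 tumors (circles, bars SE, filled where the adjusted P was under 0.05) and within set A (red diamonds, filled likewise). Dotted lines mark the median of all tested genes, at -0.58 and -1.19, and 47 circles lie right of 0.

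Tumors of set A were then set against the other 7, to show how far tumors differed by library set. In TPM 2 members were higher in MP1 to MP3, Gmnn and Rpa3, and 6 were lower, namely Mcm6, Pole, Rfc1, Lig1, Timeless and Chaf1a, against 1.29% of all genes higher and 30.1% lower. Rpa3 was at 444, 282 and 505 TPM in MP1 to MP3 and at 58.6 to 184 TPM in the other 7, without overlap (1.97 ± 0.37, adjusted P = 0.0020). Gmnn was at 331, 136 and 432 TPM against 45 to 161 TPM, with MP2 inside that range (1.54 ± 0.46, adjusted P = 0.021). Chaf1a was at 10.1, 3.21 and 3.10 TPM against 10.4 to 89.8 TPM, also without overlap (-3.09 ± 0.57, adjusted P = 0.0018).

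These last 3 genes were called in the same direction after median-of-ratios scaling (Rpa3 3.28, Gmnn 2.86 and Chaf1a -1.92, adjusted P = 0.0023 to 0.015) and after removal of the trend with gene length (2.49, 2.17 and -1.96). The direction of the group as a whole changed with the scaling: 18 members were above 0 in TPM and 39 after median-of-ratios scaling. After it 21 were called higher and 1 lower, against 13.7% of all genes higher and 9.87% lower. Higher calls over all genes went from 4.12% to 58.2% of all calls. The count of lower members in TPM was 17 without MP4 (32.2% of all genes lower), 1 without MP2 (16.4%) and 2 without MP3 (20.3%). It was 3 without MP5, MP6 or MP8 (25.8% to 27.9%). The count of higher members was 1 without MP1 or MP3 (0.579% and 0.266% of all genes higher). A library set and the tumors in it cannot be told apart, since no tumor was in more than 1 set.

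A ratio of 2 genes in 1 library does not depend on the factor that scales the library, apart from the added 1 TPM, but it can follow a trend with gene length. Of 6 such ratios, which were chosen with earlier results of these data known, Orc1 to Orc2 passed the test. As a log2 ratio it was -3.20, -2.99 and -3.40 in WT ovaries and -2.44, -2.04 and -1.35 (lowest, median, highest) in tumors, so that all 10 tumors lay above all WT ovaries. The difference in means was 1.23 (exact permutation test, 2-sided, P = 0.0070, adjusted P = 0.042 over 6 ratios), where 0.0070 is the smallest P that 3 of 13 libraries allow. With the length trend removed it was 1.19 (adjusted P = 0.042). Within set A the difference was 1.23 as well, with all 3 tumors above all WT ovaries and P = 0.10, the smallest that 3 against 3 allows. Leaving out 1 library moved the difference between 1.13 and 1.33. The adjusted P was then 0.055 without any 1 of MP1 to MP9, 0.182 without any 1 WT ovary, and 0.027 without the library labelled MP10. The smallest P is 0.0091 with 1 tumor left out and 0.0303 with 1 WT ovary left out, so a ratio that alone reaches it has an adjusted P of 0.055 or 0.182 over 6 ratios and cannot pass.

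The other ratios did not pass. GINS against MCM, as Gins2 to Mcm2, was 1.11 higher in tumors (exact permutation P = 0.042, adjusted P = 0.126) with 8 of 10 tumors above every WT ovary. Within set A it was 2.17 higher with 3 of 3 tumors above, and without the library labelled MP10 it was 1.25 higher over all other tumors (adjusted P = 0.036). Asf1b to Asf1a, the cycling against the other ASF1 chaperone, was 1.64 higher (adjusted P = 0.140), with 8 tumors above and 2 below every WT ovary. Asf1a itself was at 28.1, 27.7 and 21.5 TPM in WT ovaries and at 11.3, 20.5 and 41.0 TPM in tumors. Pcna to Mki67, the clamp against a general marker of cycling cells, was 1.01 higher over all tumors (adjusted P = 0.287) and 2.80 higher within set A, where 3 of 3 tumors lay above every WT ovary. Pcna is listed at 2400 bases and Mki67 at 10061 bases, and with the length trend removed the differences were 0.62 (adjusted P = 0.392) and 1.92. Over all tumors that step gave 0.99 for Gins2 to Mcm2 and 1.54 for Asf1b to Asf1a. Mki67 was at 51.1, 73.5 and 33.3 TPM in WT ovaries and at 17.4, 70.5 and 268 TPM in tumors.

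Cdt1 to Gmnn, the loader against its inhibitor, separated the tumors by library set. It was -0.96, -1.13 and -1.76 in WT ovaries, -2.40, -1.67 and -2.72 in MP1 to MP3, and -0.36 to 1.31 in the other 7 tumors, all of which lay above every WT ovary. Over all tumors the difference was 1.10 (adjusted P = 0.287), and within set A it was -0.98, the opposite direction. Cdt1 is listed at 3140 bases and Gmnn at 1465 bases. With the length trend removed the difference was 1.37 over all tumors (adjusted P = 0.199) and -0.38 within set A, where 2 of 3 tumors lay below every WT ovary. Dbf4 to Cdc7, the kinase activator against the kinase, was 0.16, 0.15 and 0.29 in WT ovaries and lay below that range in 9 of 10 tumors, at -1.58 to -0.19, while the library labelled MP10 stood at 1.70. The difference was -0.88 (adjusted P = 0.262) over all tumors and -1.15 without the library labelled MP10 (adjusted P = 0.027).

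**Figure D3:**
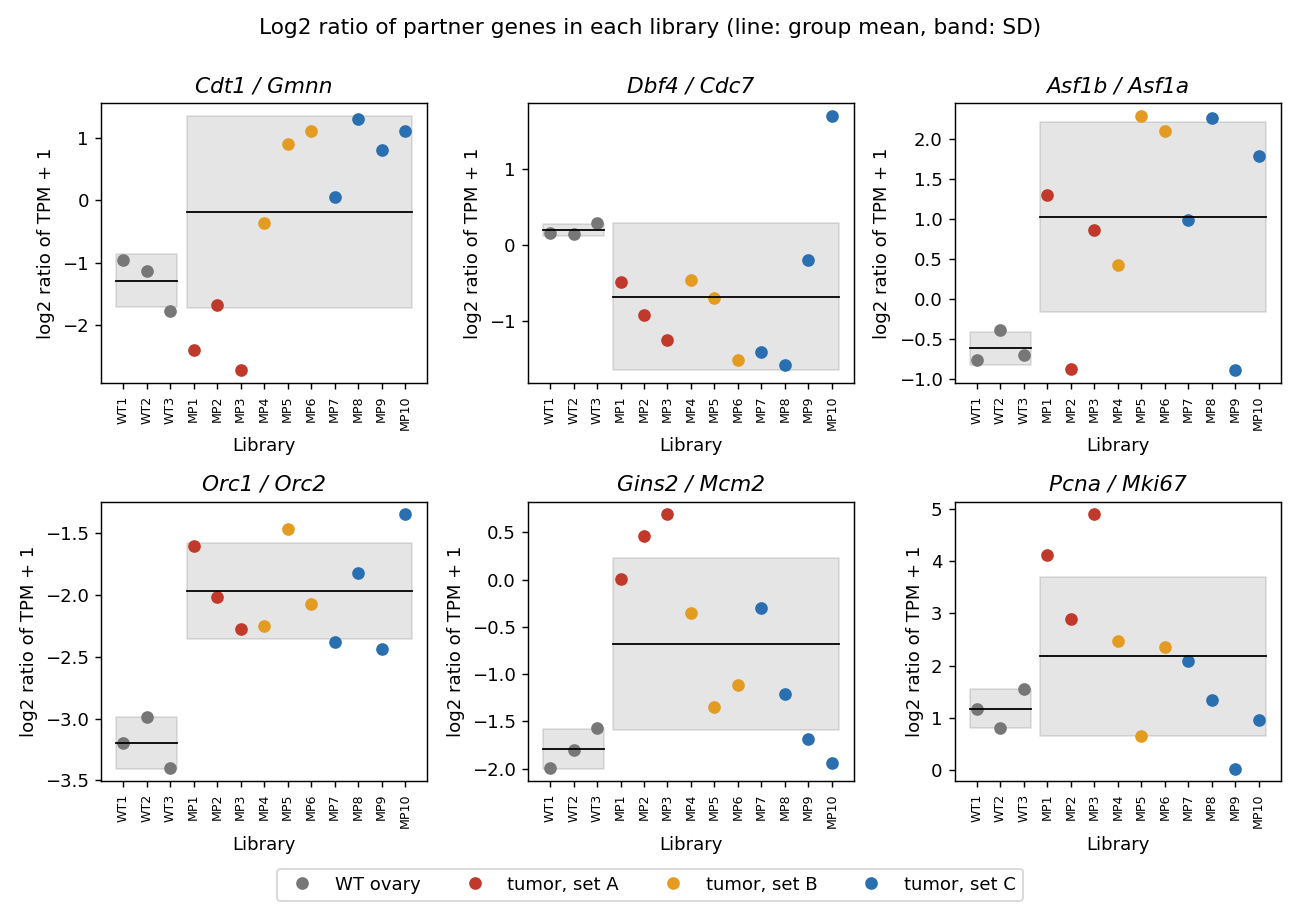
Log2 ratio of TPM + 1 for 6 pairs of partner genes in each library, with group means (lines) and SD (bands). Orc1 / Orc2 separates the groups, Cdt1 / Gmnn is low in the 3 red tumors of set A, and Dbf4 / Cdc7 is below the WT ovaries in each tumor but the library labelled MP10.

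Subunits of one complex did not move by equal steps. In the ORC the spread between the most and the least abundant subunit was 11.8- to 16.4-fold in WT ovaries and 4.70- to 9.93-fold in tumors, without overlap. Orc1 was the lowest subunit in 3 of 3 WT ovaries and 7 of 10 tumors, and Orc6 the highest in 2 of 3 and 10 of 10. In the clamp loader the order changed: Rfc1 was the most abundant subunit in 3 of 3 WT ovaries (52.9 to 60.5 TPM) and Rfc4 in 9 of 10 tumors, and the spread went from 3.19- to 3.76-fold in WT ovaries to 2.10- to 16.0-fold in tumors. Rfc1 was at 19.1 to 24.5 TPM in MP1 to MP4 and at 51.2 to 373 TPM in the other tumors. It was below every WT ovary in 5 tumors, MP1 to MP4 and MP7, and above every WT ovary in 5. Its fold change over all tumors was -0.06 ± 0.70 (adjusted P = 0.96).

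The MCM ring, by contrast, kept a narrow spread in both groups, 2.41- to 2.62-fold in WT ovaries and 2.29- to 3.91-fold in tumors. Mcm6 was highest in 3 of 3 WT ovaries and 7 of 10 tumors, Mcm7 in MP1 to MP3, and Mcm2 was lowest in 3 of 3 and 8 of 10. In GINS, Gins4 was the most abundant subunit in all 13 libraries. Gins2 was the lowest in 2 of 3 WT ovaries, and Gins3 in WT3 and in 10 of 10 tumors. TPM divides by gene length, but fold changes still followed length, as described further on, so a change of order between a short and a long gene is uncertain. Rfc4 is listed at 1534 bases and Rfc1 at 6021 bases, and with the length trend removed Rfc1 was at 0.83 over all tumors (adjusted P = 0.22) and Rfc4 at 2.61.

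**Figure D4:**
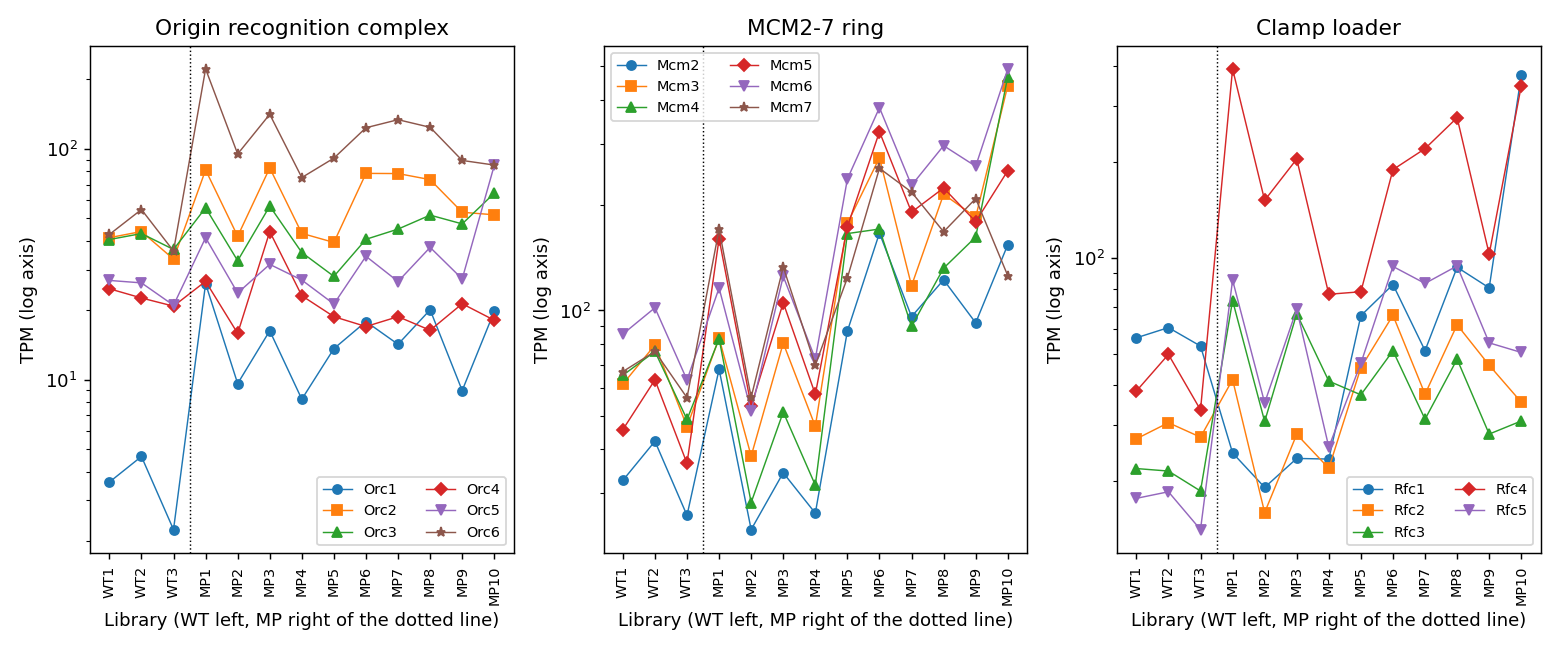
TPM on a log axis of each subunit of the ORC, the MCM ring and the clamp loader in each library. Orc1 lies well under the other ORC subunits in WT ovaries and nearer to them in tumors, the MCM lines stay bundled, and Rfc4 passes Rfc1 in each tumor except the library labelled MP10.

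Tumors differed widely among themselves. The coefficient of variation over 10 tumors ran from 25.3% for Orc3 to 126% for Rfc1, with a median of 52.5%. The highest value rests on the library labelled MP10: without it Rfc1 was at 57.9% and the range over 9 tumors ran from 21.8% for Orc5 to 80.6% for Chaf1a. The library labelled MP10 held the highest value for 17 members, MP6 for 10 and MP3 for 8, while MP4 held the lowest for 20 and MP2 for 19. These counts are in TPM, of which a few genes took a large share in MP2. By rank among tested genes, the median member lay at percentile 86.6 in MP2 and 72.6 in MP4, where the median of the tumors was 86.8. In the library labelled MP10, Dbf4 (111 TPM, next tumor 35.7), Orc5 (84.9, next 41.2) and Rfc1 (373, next 93.5) stood far above the other tumors, and all 3 lie on the first 70 Mb of chromosome 5. There, 359 other tested genes had a median 1.45 log2 units above the median of the other tumors in that library, once each library was centred on its own tested genes. The 767 genes further along chromosome 5 had a median of -0.49, and in the other 9 tumors the first 70 Mb lay between -0.09 and 0.10. The boundary of 70 Mb was chosen after the values were seen, and its part in the levels of Dbf4, Orc5 and Rfc1 was not tested. The 6 members further along, Cdc7, Pole, Rfc5, Rfc2, Mcm7 and Rfc3, were between -1.07 and 0.46 on the same scale.

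Fold changes followed gene length in members and other genes alike. The Spearman correlation of fold change with length, given as a description across genes that share libraries, was -0.26 over 49 members and -0.30 over all tested genes for all tumors, and -0.45 and -0.41 within set A. Removing the length trend gave 38 members higher and 0 lower over all tumors, where 11.5% of all genes were higher and 9.19% lower. Within set A it gave 48 and 0, where 32.3% of all genes were higher and 23.9% lower.

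Of 32 other replication genes, chosen from general knowledge, 3 were called higher and 1 lower, with 24 above 0 and a median of 0.60, against 2.51% of all genes higher and 14.3% lower. The called genes were Pole3, a histone-fold subunit of polymerase epsilon (1.29, adjusted P = 0.015), Dtl, which marks CDT1 for destruction (1.57, adjusted P = 0.039), and Rnaseh2b, a subunit of RNase H2 (1.27, adjusted P = 0.0496). The polymerase delta subunit Pold4 was lower (-1.26, adjusted P = 0.043). Within set A 5 of the 32 were higher and 8 lower, with a median of -0.0019, against 6.44% of all genes higher and 57.3% lower. Of 10 proliferation markers 5 were called higher and 0 lower, with a median of 1.31: Cdk1 (1.56, adjusted P = 0.018), Birc5 (1.56, 0.025), Ccnb1 (1.65, 0.031), Ccna2 (1.48, 0.045) and Aurkb (1.51, 0.048). Mki67 was at 0.30 (adjusted P = 0.80) and Foxm1, a factor of the G2 programme, at -0.12 (0.94). Within set A 4 of the 10 markers were higher and 2 lower, the latter being Mki67 (-1.06, adjusted P = 0.039) and Foxm1 (-2.44, adjusted P = 0.0023). Whether members and proliferation markers differed from each other was not tested.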

How the data were processed

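RNA was extracted from whole tissue of 10 MP tumors and 3 WT ovaries, and polyA libraries were sequenced from 1 end (76 bases, per the labels). The authors deposited TPM values per gene and library, with replicates not pooled. The submitters' processing notes name FastQC 0.11.5, Trimmomatic 0.36, STAR 2.5.3a, featureCounts 1.6.3 and mm10, while the text of the labels speaks of a human build, another counter and RPKM, so build and unit were taken from the table. The strand setting of the counting is not given in the sources used here. Because TPM is a share, a rise in some genes lowers the rest.

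TPM was tested as log2(TPM + 1) with limma 3.58.1 (trended, robust) in R 4.3.3, in the 17277 genes at 1 TPM or more in at least 3 libraries, with Benjamini-Hochberg adjustment over all of them and a threshold of 0.05. The labels do not say that each library came from a separate animal, so P values measure the spread between these libraries. Fold changes understate low genes because 1 TPM was added. Reads were worked back from TPM times length, which came out as a whole multiple of the smallest step for 100% of values (tolerance 0.01). Ratios were tested by exact permutation over 286 ways to choose 3 of 13 libraries. Named genes were members past the threshold, the 2 smallest P of each role group, and both genes of each ratio. Other members given with values of their own, such as Rfc1, Rpa3, Chaf1a, Fen1 and the remaining subunits of a complex, were named after their values were seen. Members, gene lists and ratios were chosen with earlier results of these data known.

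Of the members, 47 had the start and end of GENCODE M21 and 40 had a RefSeq start window. The replicate numbers shared by WT ovaries and MP1 to MP3 do not pair animals, and the deviations of same-numbered libraries correlated at -0.096 to 0.001. Scripts (R and Python 3.11.15) were tested on simulated data. Alternatives varied the pseudocount, filter, scaling, library set, block, limma options, length trend and single libraries. A fit at equal depth, tumors of sets B and C alone, the length and read-based fits within set A, and the ratios with the length trend removed were added after the data were seen.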

Additional observations from a re-analysis of the deposited data

Results flagged for a closer look

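Of 55 values looked at over the 10 tumors (the 49 members and the 6 ratios), 5 had 1 tumor far from the others by Dixon's test (a gap above 0.466 of the range, taken on log2(TPM + 1) for genes and on the log2 ratio for ratios). Chance gives about 1 in 20, here 2.75.

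Of these, 4 are in the library labelled MP10. Dbf4 stood at 111 TPM there with the next tumor at 35.7, Orc5 at 84.9 with the next at 41.2, and Rfc1 at 373 with the next at 93.5. Dbf4 to Cdc7, as a log2 ratio, was 1.70 with the next at -0.19. On chromosome 5, genes within 5 Mb of these members were also high in that library. The median of 39 neighbours of Dbf4 was 1.14 log2 units above the other tumors, with 35 of 39 above 0. For Orc5 it was 1.56 (78 of 85 above 0) and for Rfc1 it was 0.71 (23 of 35 above 0), against 2.36 for Rfc1 itself. In bins of 10 Mb the median was between 0.79 and 1.73 over the first 50 Mb, -0.46 from 50 to 60 Mb, 0.71 from 60 to 70 Mb, and between -0.50 and -0.28 beyond. Cdc7, further along the chromosome, was at -1.07 on the same scale. The part of the neighbourhood in these levels was not tested.

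Orc4 stood at 43.8 TPM in MP3 with the next tumor at 26.7. Its 29 tested neighbours within 5 Mb on chromosome 2 had a median of 0.06 in MP3, against 1.72 for Orc4 itself, and Orc4 overlaps Acvr2a and Mbd5.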

How the results depend on the processing

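Over all tumors, the count of 11 members higher was 38 with median-of-ratios scaling, 39 with quantile normalization, 38 with the length trend removed, 36 with voom on the reads worked back, 18 with a library set covariate (1 lower), 17 with the replicate block (2 lower) and 19 within set A (2 lower). It was 22 with the tumors of sets B and C alone, a setting added after the data were seen. Leaving out 1 library gave 2 to 25. Other pseudocount, filter, limma and depth settings gave 11 or 12. Of the 49 members, 40 kept their direction throughout and 9 turned in some setting. Orc4 turned to 0.59 with median-of-ratios scaling, 0.60 with quantile normalization, 0.85 with the length trend removed, 0.28 with voom and 0.22 with the covariate, the block or set A alone. Rfc1 turned to 0.65, 0.51, 0.83 and 0.22 in the first 4 of these, to 0.47 in the tumors of sets B and C, and lay between -0.37 and 0.10 when 1 library was left out. The covariate and the block leave only set A to inform MP against WT, so they share 1 estimate with set A alone. That estimate was Mcm4 -0.33, Pold3 -0.27, Pole -0.38, Rfc2 -0.089, Lig1 -0.023, Timeless -0.76 and Chaf1a -1.89. Pold3 was -0.028 at equal depth and -0.039 to 0.16 with 1 library left out.

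Within set A 19 members were higher and 2 lower (all genes 6.44% higher, 57.3% lower). These became 46 and 0 with median-of-ratios scaling (26.6%, 32.2%), 48 and 0 with the length trend removed (32.3%, 23.9%) and 37 and 2 with voom (14.3%, 47.9%). With 1 library left out they were 13 to 33 higher and 2 to 3 lower (3.84% to 12.6% and 50.2% to 61.7%). The distance of the members' median from that of all genes went from 2.09 to 2.46 with median-of-ratios scaling, 2.68 with a pseudocount of 0.1 and 2.76 with voom. Rfc1 turned to 0.27 with median-of-ratios scaling and 0.58 without the length trend. Between tumor sets, 2 members were higher and 6 lower (all genes 1.29% higher, 30.1% lower). These became 21 and 1 with median-of-ratios scaling (13.7%, 9.87%) and 17 and 1 without the length trend (12.2%, 6.99%). With 1 library left out they were 1 to 2 higher and 1 to 17 lower (0.266% to 1.99% and 16.4% to 32.2%). The cause of these shifts was not tested.

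For ratios, leaving out 1 library gave Orc1 to Orc2 1.13 to 1.33, Gins2 to Mcm2 0.96 to 1.25 and Dbf4 to Cdc7 -1.15 to -0.78. Within set A and with the replicate block, which rest on the same libraries, Orc1 to Orc2 was 1.23 and Cdt1 to Gmnn turned to -0.98. For Orc1 to Orc2 the adjusted P was 0.15 and 0.30, in designs that cannot reach 0.05. Removing the length trend within set A gave 1.15 (0.15) and -0.38. The numbers behind the block do not pair the samples. Depth limits Fen1 most.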
